A study of Homo sapiens with 3 samples.

Results

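The early transcript response of T47D cells to the peptide ERα17p was described from the array of peptide-treated cells against the array of vehicle-treated cells. These are 2 of the 3 arrays of the series, taken by their labels. T47D cells, an established line from a human breast tumour, express estrogen receptor α and respond to progesterone. The cells had first been kept for 4 h in medium with 10% charcoal-stripped serum, which lacks most steroid hormones. They were then given ethanol at 0.1% (vehicle) or ERα17p at 1 µM for 3 h. The third array, of cells given estradiol at 1 µM for the same 3 h, was used to find genes that did not move alike under the hormone. Each group was 1 array of 1 cell line, so no difference has an error between cultures and no test was run. The solvent of the peptide is not given in the labels, so a solvent effect cannot be told apart from that of the peptide.

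The peptide ERα17p repeats a short calmodulin-binding stretch of estrogen receptor α, next to the hormone-binding domain. Estradiol acts by entering the hormone pocket of the receptor, which then binds DNA at estrogen response elements and recruits cofactors to nearby genes. In luminal breast cancer cells such as T47D, this program raises transcripts for growth regulators, the progesterone receptor and secreted proteins. The aryl hydrocarbon receptor is another ligand-activated factor of these cells. It binds xenobiotic response elements and induces the detoxifying enzyme CYP1A1.

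Values are those deposited, on what was taken as a log2 scale, relative to a baseline for each probe set that is not stated. A value near 0 is near this baseline and says nothing of how abundant a transcript is, and levels cannot be compared between genes. For the same reason the identity of the cells could not be checked by marker levels. A probe set is a group of probes on the array for 1 transcript. A gene's value is the mean over its probe sets, and an SD is over the n probe sets of that gene. A difference is ERα17p minus vehicle unless another is named, and 1.5-fold is 0.585 on this scale.

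The spread of the vehicle array was unlike that of the other arrays. Over all probe sets other than controls its values had an SD of 0.434, against 0.158 for estradiol and 0.166 for ERα17p. The control sets that read 18S ribosomal RNA were 1.76 ± 0.39 (SD, n = 3 probe sets) higher in the ERα17p than in the vehicle array. For ACTB, the 3′ minus the 5′ control set gave 0.52 in the vehicle and −0.17 in the ERα17p array, and for GAPDH this gave 0.39 and 0.01. These values differed between the ERα17p and vehicle arrays, on which each difference from vehicle rests, and their part in the results was not tested. Against the estradiol array the 18S sets differed by −0.12 ± 0.11. Control sets for poly-A spikes differed by 0.45 ± 0.29 (SD, n = 24 probe sets) from vehicle and −0.24 ± 0.25 from estradiol. Those for hybridisation spikes differed by −0.17 ± 0.19 (SD, n = 18 probe sets) and −0.02 ± 0.20. The difference ERα17p minus estradiol does not use the vehicle array, and it is given below as the value without that array.

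Of 19775 genes, 1361 were at least 1.5-fold higher in the ERα17p than in the vehicle array (6.88%) and 1732 were at least 1.5-fold lower (8.76%). Agreement between probe sets could be judged for the 10523 genes with 2 or more. Among these, 842 were 1.5-fold higher (8.00%), and in 714 (84.8% of them) every probe set was above 0, which is 6.79% of the genes judged. There were 637 at least 1.5-fold lower (6.05%), and in 592 (92.9%) every set was below 0, which is 5.63% of those judged. Among the 9252 genes with 1 probe set, 519 were higher (5.61%) and 1095 lower (11.8%). Every set passed 1.5-fold on its own in 234 higher and 241 lower genes (2.22% and 2.29%).

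A gene was counted as apart when it was at least 1.5-fold different from the vehicle and from the estradiol array in the same direction, with every probe set on that side in each difference. Of all 19775 genes, 33 were higher than on both other arrays (0.167%) and 36 were lower (0.182%). Those with 2 or more probe sets were 9 higher (0.0855% of 10523) and 8 lower (0.0760%), and the others rest on 1 probe set. The weakest gene inside these limits among the higher was NAV2-AS2, with 0.588 for the smaller of its differences, and EFCAB3 lay just outside at 0.584. Among the lower, SLC26A6 lay just inside at −0.587 from estradiol, and MRTFA-AS1 just outside at −0.585 from vehicle.

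**Figure D1:**
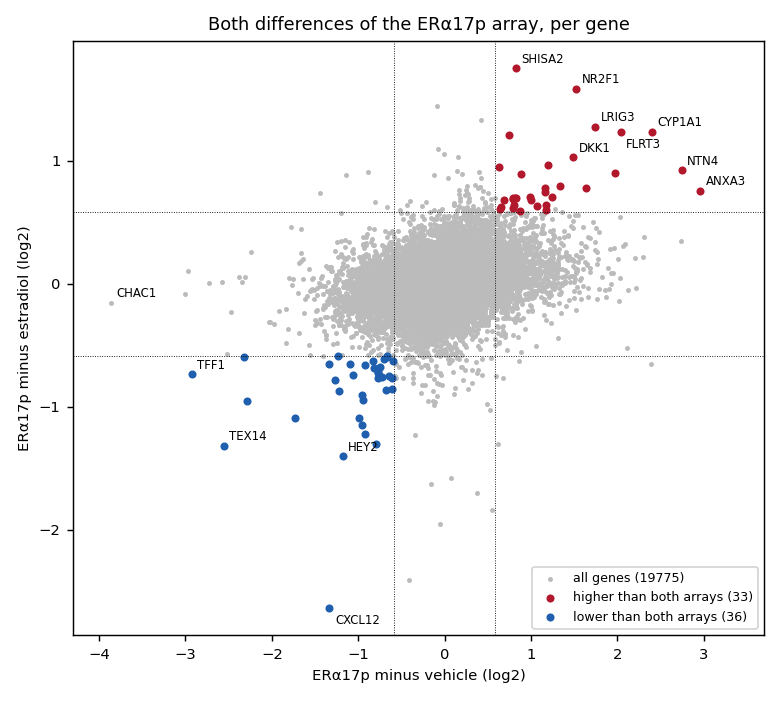
Difference of the ERα17p array from the vehicle array (x axis, log2) and from the estradiol array (y axis, log2), 1 point for each of 19775 genes, with dotted lines at 1.5-fold. The 33 genes higher than both arrays (red) and the 36 lower than both (blue) lie in the upper right and lower left corners, and both axes share the ERα17p values.

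Some secreted and surface proteins of cell guidance and adhesion were among the genes higher than on both other arrays. They held 2 of 32 leucine-rich repeat adhesion genes, 1 of 53 netrins, slits, semaphorins and receptors, and 1 of 21 ephrins and Eph receptors. There were 0 among 41 cadherins, 47 protocadherins, 41 claudin and junction genes, 25 integrins and 44 neuronal immunoglobulin genes. The share of all genes was 0.167%. FLRT3 and NTN4 are in these counts and were named at the outset, so the counts are a description. FLRT3, a leucine-rich repeat adhesion protein that binds latrophilins and Unc5 receptors, had values of −0.93 in the vehicle, −0.12 in the estradiol and 1.11 in the ERα17p array. The rule fixes that the ERα17p array was the highest, and the estradiol array lay between the others. The difference from vehicle was 2.04 ± 0.19 (SD, n = 2 probe sets), or 4.12-fold, and that from estradiol 1.23 ± 0.15. Its sets read 2.18 and 1.90. NTN4, a secreted netrin of basement membranes, had values of −2.15, −0.32 and 0.60 in the same order of arrays, on 1 probe set. It was 6.72-fold higher than in the vehicle array (2.75), while 0.92 separated it from estradiol. LRIG3, a membrane protein with leucine-rich repeats and immunoglobulin domains, stood at −0.57, −0.10 and 1.18, with differences of 1.75 and 1.27.

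EPHA4, a receptor for ephrins, was higher by 0.80 ± 0.49 (SD, n = 5) than in vehicle and by 0.70 ± 0.42 than in estradiol. All 5 of its sets were above 0 in each difference, from 0.18 to 1.29 in the first. PKP2, a desmosomal plakophilin, was higher by 1.24 ± 0.82 (SD, n = 2) and 0.70 ± 0.30. ST8SIA1, which makes the ganglioside GD3, had values of 0.08, 0.07 and 0.97, so the vehicle and estradiol arrays were alike and the ERα17p array alone was high. Its differences were 0.89 ± 0.66 (SD, n = 2) from vehicle and 0.89 ± 0.28 from estradiol.

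Some inhibitors of Wnt and TGF-β signalling and a TGF-β ligand were in the same group. It held 1 of 16 secreted Wnt antagonists, 0 of 38 Wnt ligands and receptors and 2 of 42 TGF-β family ligands and antagonists, beside 0.167% of all genes. The Wnt antagonist counted is DKK1, which was named at the outset, so its count is a description. DKK1, which blocks Wnt signalling by binding its coreceptor LRP6, had values of −0.42 in the vehicle, 0.04 in the estradiol and 1.06 in the ERα17p array, on 1 probe set. The differences were 1.49 (2.81-fold) and 1.03. SHISA2, which holds immature Wnt and FGF receptors in the endoplasmic reticulum, stood at 0.19, −0.73 and 1.02. It was lower with estradiol than with vehicle and highest with ERα17p, with differences of 0.83 from vehicle and 1.75 from estradiol. BAMBI, a decoy receptor for TGF-β ligands, was higher by 0.75 and 1.21. TGFB2, a TGF-β ligand, was higher by 1.33 ± 1.06 (SD, n = 5) and 0.79 ± 0.60, with its sets between 0.33 and 2.69 against vehicle.

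CYP1A1 had values of −1.64 in the vehicle, −0.47 in the estradiol and 0.77 in the ERα17p array, on 1 probe set. The difference from vehicle was 2.41 (5.30-fold) and that from estradiol 1.23. Of 11 measured genes of the aryl hydrocarbon receptor and its targets, 5 were at least 1.5-fold higher than in vehicle and 0 lower. The shares of all genes were 6.88% and 8.76%, and the median of the group was 0.26. Its median was 0.23 for estradiol minus vehicle and 0.12 against estradiol. CYP1A1, counted here and named at the outset, was the only member at least 1.5-fold above estradiol. CYP1B1, the related enzyme, was higher by 1.92 ± 1.13 (SD, n = 4), the receptor AHR by 0.91 and its repressor AHRR by 0.61. From the estradiol array these 3 differed by 0.28 ± 0.19, 0.45 and 0.41, under 1.5-fold. The NRF2 gene NFE2L2, on the same list, was higher by 0.69 ± 0.33 (SD, n = 3).

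Some transcription factors and enzymes were also higher than on both other arrays. NR2F1, the orphan nuclear receptor COUP-TFI, had values of −0.26, −0.32 and 1.26, so that the ERα17p array alone stood high, by 1.52 and 1.58 on 1 probe set. GRHL3, a factor of epithelial differentiation, was higher by 1.64 and 0.78. EGLN3, a prolyl hydroxylase that marks hypoxia-inducible factors for degradation, was higher by 1.16 ± 0.11 (SD, n = 2) and 0.78. ADK, adenosine kinase, was higher by 1.18 ± 0.39 (SD, n = 2) and 0.60 ± 0.65, where 1 set alone was far from estradiol (1.06 and 0.14). LIPH, a phospholipase that makes lysophosphatidic acid, was higher by 0.79 ± 0.61 (SD, n = 2) and 0.61 ± 0.03.

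On 1 probe set each, ANXA3, a calcium-dependent phospholipid-binding protein, was higher by 2.96 than in vehicle and by 0.75 than in estradiol. CYS1, a protein of cilia, was higher by 1.20 and 0.96, and the noncoding RNA FILNC1 by 1.97 and 0.90. The other 14 single-set genes, BAMBI included, lay between 0.63 and 1.17 from vehicle and between 0.59 and 1.21 from estradiol.

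**Figure D2:**
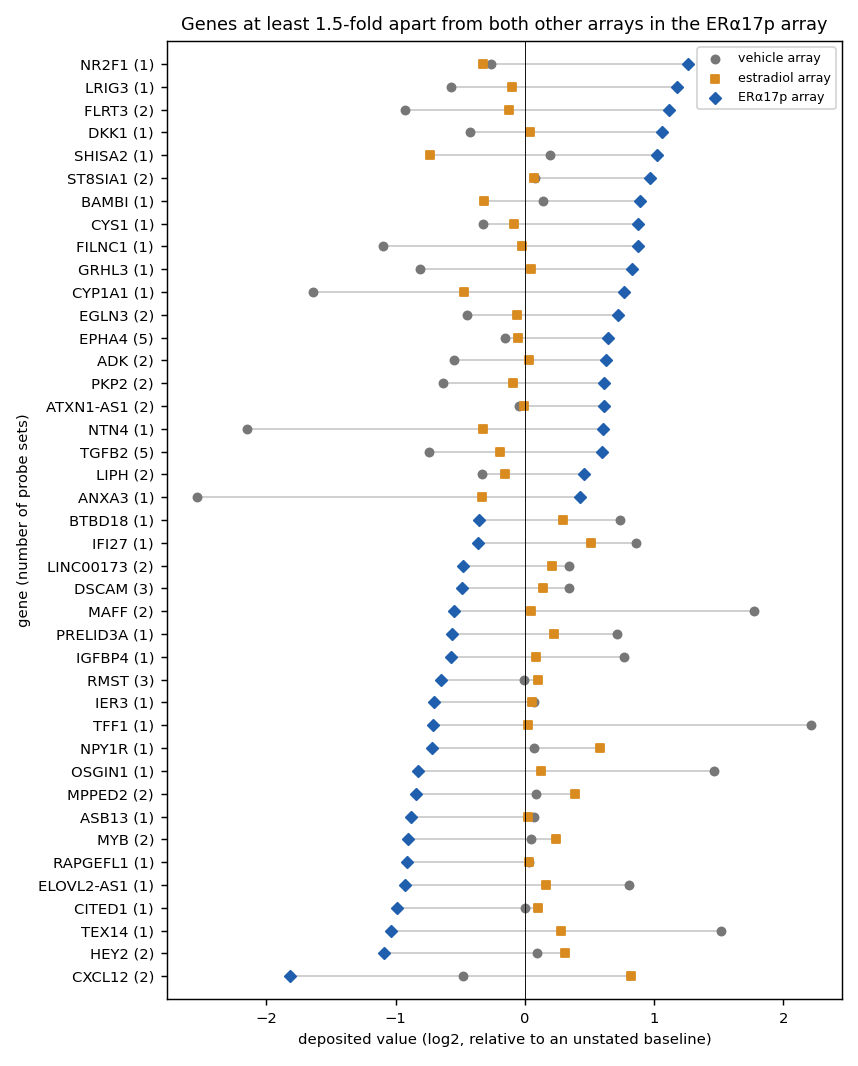
Deposited values (x axis, log2, relative to an unstated baseline) on the vehicle (circle), estradiol (square) and ERα17p (diamond) arrays for the named genes at least 1.5-fold apart from both other arrays, with the number of probe sets in brackets. Higher genes come first, from NR2F1 at 1.26 downward, and lower genes follow, ending with CXCL12 at −1.81; the vehicle array is far from the others for NTN4, ANXA3, TFF1 and MAFF.

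Start regions are shown for CYP1A1, NTN4, FLRT3 and DKK1, 4 higher genes named at the outset and not by rank, and for CXCL12. The last had opposite differences with the peptide and the hormone. These regions are shown because CYP1A1 and CXCL12 are known targets of the receptors named above. They are the 250 bases before the RefSeq start site on GRCh38.p14, read 5′ to 3′ along the gene, in lower case. Capitals mark the xenobiotic response core GCGTG, the estrogen response core GGTCA or the TATA box TATAAA on either strand, and no marked motifs overlap.
CYP1A1 (chr15:74725529-74725778, minus strand): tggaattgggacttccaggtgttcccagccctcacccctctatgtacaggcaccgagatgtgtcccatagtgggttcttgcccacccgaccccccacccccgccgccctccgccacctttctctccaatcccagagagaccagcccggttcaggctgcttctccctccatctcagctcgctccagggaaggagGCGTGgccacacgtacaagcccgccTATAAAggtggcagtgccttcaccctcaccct
NTN4 (chr12:95791156-95791405, minus strand): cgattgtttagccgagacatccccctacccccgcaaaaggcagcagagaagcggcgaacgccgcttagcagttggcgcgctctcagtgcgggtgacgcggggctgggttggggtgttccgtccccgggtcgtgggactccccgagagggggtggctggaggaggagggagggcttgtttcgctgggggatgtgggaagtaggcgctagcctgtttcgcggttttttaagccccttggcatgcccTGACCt
FLRT3 (chr20:14337613-14337862, minus strand): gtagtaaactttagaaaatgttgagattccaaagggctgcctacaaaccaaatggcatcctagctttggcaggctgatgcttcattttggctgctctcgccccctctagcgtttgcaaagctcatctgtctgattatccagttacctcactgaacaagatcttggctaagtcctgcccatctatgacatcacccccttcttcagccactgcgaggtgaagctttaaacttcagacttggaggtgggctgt
DKK1 (chr10:52314031-52314280, plus strand): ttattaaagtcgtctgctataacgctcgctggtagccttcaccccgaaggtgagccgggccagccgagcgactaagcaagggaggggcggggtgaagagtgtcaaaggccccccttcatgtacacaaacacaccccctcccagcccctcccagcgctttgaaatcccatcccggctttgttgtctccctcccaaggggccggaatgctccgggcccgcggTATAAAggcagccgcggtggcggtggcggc
CXCL12 (chr10:44385098-44385347, minus strand): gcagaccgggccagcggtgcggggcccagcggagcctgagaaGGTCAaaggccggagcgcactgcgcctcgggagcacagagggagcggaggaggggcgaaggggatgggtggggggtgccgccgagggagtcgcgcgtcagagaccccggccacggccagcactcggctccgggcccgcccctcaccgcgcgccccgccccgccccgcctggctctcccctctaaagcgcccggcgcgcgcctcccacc

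In CYP1A1 the GCGTG core began 57 bases and the TATA box 32 bases before the start. DKK1 held a TATA box 30 bases before its start. GGTCA was found 208 bases before the start of CXCL12 and, on the other strand, 6 bases before that of NTN4. FLRT3 held none of the 3 motifs in this window. RefSeq promoters matched 28 of the 33 genes higher than both arrays. The GCGTG core was in 8 of them (28.6%), GGTCA in 9 (32.1%) and TATAAA in 5 (17.9%). Of all 27305 promoters in the table, 31.9%, 33.1% and 11.1% held these motifs, and of the 15384 that belong to measured genes, 39.3%, 31.3% and 8.31%. The share with GCGTG was below each of these and that with TATAAA above each, on 8 and 5 promoters. For the 36 genes lower than both arrays the check is void, because 28 (77.8%) had a promoter, under the 80% set as a minimum. The measured genes as a whole (77.8%) are under this minimum too, so their shares are given only as a description.

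Genes lower than on both other arrays included several known estrogen-responsive genes, picked with earlier results of these arrays in view. Of 43 measured members of the estrogen-induced list described below, 5 were lower than on both, beside 0.182% of all genes. CXCL12, a chemokine that attracts cells carrying CXCR4, had values of −0.48 in the vehicle, 0.82 in the estradiol and −1.81 in the ERα17p array. The hormone and the peptide arrays lay on opposite sides of the vehicle array. The difference was −1.33 ± 0.31 (SD, n = 2) from vehicle and −2.63 ± 0.67 from estradiol, and its sets stood at −1.55 and −1.11 against vehicle. MYB, a transcription factor of proliferating luminal cells, had values of 0.05, 0.24 and −0.90, so only the ERα17p array stood low. Its difference was −0.95 ± 0.86 (SD, n = 2), from sets at −1.56 and −0.35, and from estradiol it was −1.14 ± 1.12.

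TFF1, a secreted trefoil protein and classical estrogen target, had values of 2.22, 0.03 and −0.71 on 1 probe set, with differences of −2.92 and −0.74. IGFBP4, a binding protein of insulin-like growth factors, was −1.34 from vehicle and −0.65 from estradiol. RAPGEFL1, related to Rap exchange factors, differed by about the same amount from each, at −0.94 and −0.94. CITED1, a coactivator that binds p300 and estrogen receptor α, had values of 0.00, 0.10 and −0.99, with differences of −0.99 and −1.09. NPY1R, a receptor for neuropeptide Y, stood at −0.79 and −1.30. The rule for genes apart fixes that the ERα17p array was the lowest of the 3 in all of these. Estradiol minus vehicle was −2.19 for TFF1, −0.69 for IGFBP4, 0.00 for RAPGEFL1, 0.10 for CITED1 and 0.51 for NPY1R.

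HEY2, a repressor induced by Notch signalling, had values of 0.09, 0.31 and −1.09. Its difference was −1.18 ± 0.78 (SD, n = 2) from vehicle and −1.40 ± 0.02 from estradiol. MPPED2, a metallophosphoesterase, stood at −0.93 ± 0.57 (SD, n = 2) and −1.22 ± 1.35. DSCAM, a neuronal adhesion protein, stood at −0.83 ± 0.55 (SD, n = 3) and −0.62 ± 0.23. MAFF, a small MAF factor, stood at −2.32 ± 2.39 (SD, n = 2) from vehicle. Its sets read −4.01 and −0.63, so its size rests on 1 of them, and it was −0.60 ± 0.43 from estradiol.

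On 1 probe set each, TEX14, a gene of germ cell bridges, had values of 1.52, 0.28 and −1.03, with differences of −2.55 and −1.31. OSGIN1, a growth inhibitor induced by oxidative stress, stood at −2.29 and −0.95, and the interferon-induced gene IFI27 at −1.22 and −0.87. ASB13, a SOCS box protein, stood at −0.95 and −0.91. The mitochondrial lipid transfer gene PRELID3A stood at −1.27 and −0.78, and IER3, an early response gene of survival signalling, at −0.77 and −0.76. The other 18 single-set genes, TFF1 and IGFBP4 included, lay between −2.92 and −0.59 from vehicle and between −0.86 and −0.59 from estradiol.

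Noncoding RNAs were found on each side. RMST, a long noncoding RNA of neural cells, stood at −0.64 ± 0.78 (SD, n = 3) from vehicle, where 1 set at −1.54 carried the difference. LINC00173 stood at −0.82 ± 0.08 (SD, n = 2) and −0.69 ± 0.10. ELOVL2-AS1, antisense to a fatty acid elongase gene, stood at −1.73 and −1.09, while ELOVL2 itself stood at −0.34 ± 0.64 (SD, n = 2) and −0.24. ATXN1-AS1 was higher by 0.65 ± 0.81 (SD, n = 2) and 0.62 ± 0.35, and ATXN1 differed by 0.47 ± 0.46 (SD, n = 5) and 0.19. CLYBL-AS1 was higher by 0.64 where CLYBL stood at −0.11 ± 0.25 (SD, n = 3), and NAV2-AS2 by 0.87 where NAV2 stood at −0.02 ± 0.18 (SD, n = 6). Of 1861 long intergenic and antisense RNAs, 46 were at least 1.5-fold higher (2.47%) and 60 lower (3.22%) than in vehicle, beside 6.88% and 8.76% of all genes. Of the same 1861, 3 were higher and 3 lower than on both other arrays, near the 0.167% and 0.182% of all genes.

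The list of known estrogen-induced genes was chosen with earlier results of these arrays in view, so its direction is a description. Of 43 measured members, 4 were at least 1.5-fold higher than in vehicle and 9 lower, with a median of −0.06. Against estradiol, 39 of 43 lay below 0, where 48.4% of all genes did. At least 1.5-fold lower than in estradiol were 13, beside 0.607% of all genes, with AMIGO2 alone higher, beside 0.521%. The list median against estradiol was −0.32, the lowest of the 94 gene families, and the estradiol difference from vehicle had a median of 0.21. These comparisons share arrays, so the values are given side by side.

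Members fell into several patterns over the 3 arrays. SGK1, a kinase of salt and survival signalling, had values of −0.13, 1.35 and −0.28 in the vehicle, estradiol and ERα17p arrays. KCNK5, a potassium channel, stood at −0.98, 1.41 and −0.43, and MYC, the growth-promoting factor, at −1.27, 0.80 and −0.90. For these the estradiol array alone was high, and ERα17p minus vehicle was −0.15, 0.55 and 0.38, each under 1.5-fold. NRIP1, a receptor cofactor, differed from vehicle by 0.11 ± 0.67 (SD, n = 2), and GREB1, a chromatin cofactor of the receptor, by 0.24 ± 0.25 (SD, n = 3). RARA, a retinoic acid receptor, stood at −0.41 ± 0.57 (SD, n = 5) and the ubiquitin ligase SIAH2 at −0.34.

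Other members were higher or lower than in vehicle on both treated arrays. PGR, the progesterone receptor, was higher by 0.89 ± 0.04 (SD, n = 2) with ERα17p and by 1.44 with estradiol. GJA1, connexin 43, was higher by 2.11 and 2.63, and the zinc transporter SLC39A6 by 1.77 ± 1.03 (SD, n = 4) and 1.89. CTSD, a lysosomal protease, stood at −1.16 and −1.03. The cochaperone FKBP4 stood at −0.92 ± 0.14 (SD, n = 4) and −0.40. AMIGO2, an adhesion protein, had values of 0.65, −0.88 and 0.56, so that ERα17p stayed beside the vehicle where estradiol was low.

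**Figure D3:**
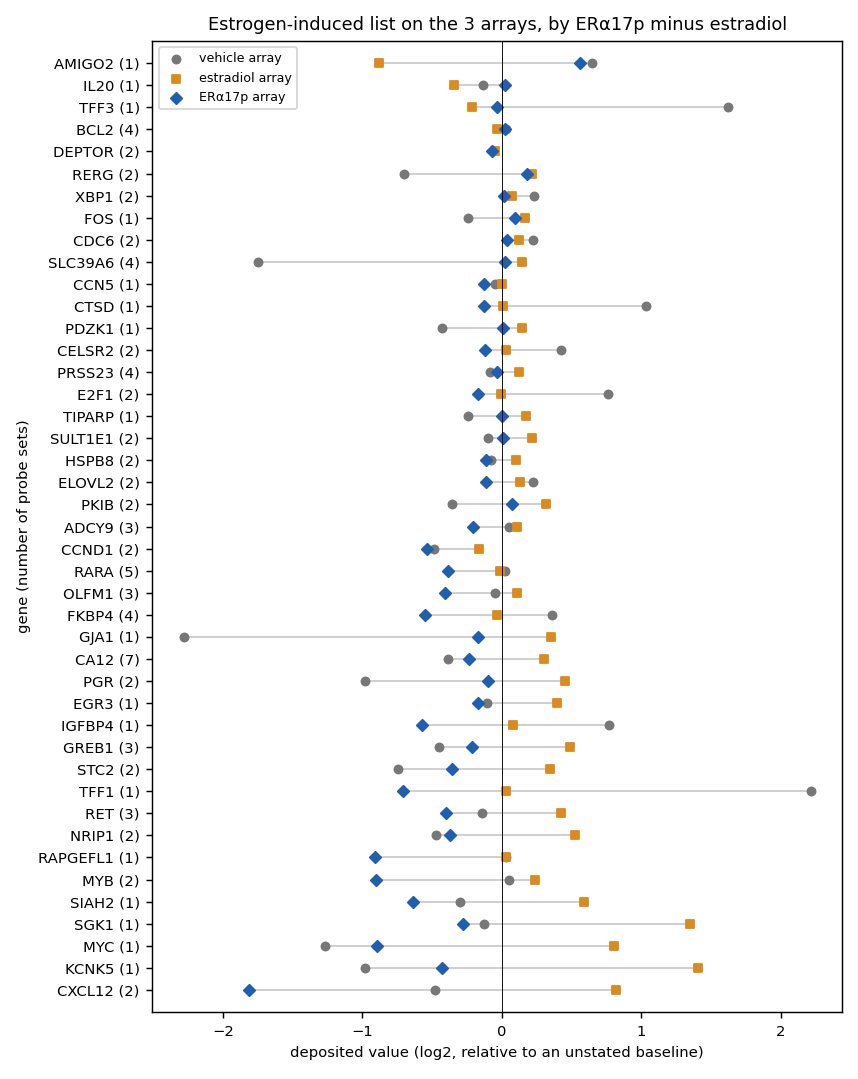
Deposited values (x axis, log2, relative to an unstated baseline) of the 43 measured genes of the estrogen-induced list on the vehicle (circle), estradiol (square) and ERα17p (diamond) arrays, ordered by ERα17p minus estradiol. The ERα17p value lies left of the estradiol value in 39 of 43 genes, and left of both other arrays in 23, by at least 1.5-fold from each in CXCL12, MYB, RAPGEFL1, TFF1 and IGFBP4.

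Among the 12 highest genes with agreeing probe sets, NIPSNAP3B was higher by 2.30 ± 0.19 (SD, n = 2), with 0.22 between ERα17p and estradiol. The cytokinesis gene ANLN was higher by 2.20 ± 1.20 (SD, n = 2) and the spindle gene ASPM by 2.12 ± 0.80 (SD, n = 3). SGPP1, which removes phosphate from sphingosine 1-phosphate, was higher by 2.07 ± 1.90 (SD, n = 2), and PDGFC, a growth factor, by 2.01 ± 1.13 (SD, n = 2). CRIM1, which binds BMP ligands, was higher by 2.03 ± 1.09 (SD, n = 3), and LHFPL6 by 2.03 ± 0.41 (SD, n = 2). ANP32E, a histone chaperone, was higher by 1.96 ± 2.46 (SD, n = 3), the mitotic kinase CDK1 by 1.95 ± 1.02 (SD, n = 4) and TMED2, of the secretory pathway, by 1.93 ± 1.62 (SD, n = 3). The differences of the genes just named from estradiol lay between −0.05 (ASPM) and 0.54 (CRIM1). Estradiol minus vehicle lay between 1.49 (CRIM1) and 2.17 (ASPM), so both treated arrays lay above the vehicle array. Their vehicle values ran from −2.13 (NIPSNAP3B) to −1.56 (PDGFC). Estradiol values ran from −0.12 (CRIM1) to 0.27 (TMED2), and ERα17p values from 0.04 (LHFPL6) to 0.44 (PDGFC). For these genes too the vehicle array was the farthest from the baseline, and whether either agent moved them was not tested. A single set each of ANP32E (0.41), TMED2 (0.06) and CYP1B1 (0.24) lay below 1.5-fold, while the sets of NIPSNAP3B and LHFPL6 lay close together.

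Among the agreeing lower genes, TNFAIP3, which limits NF-κB signalling, was at −2.38 ± 0.37 (SD, n = 2). SESN2, a stress-induced regulator of mTOR, stood at −2.32 ± 0.23 (SD, n = 2), and IRF1, an interferon regulatory factor, at −2.24 ± 0.48 (SD, n = 2). The folate receptor FOLR1 stood at −1.77 ± 1.01 (SD, n = 2) and PPP1R15A, which restores translation after stress, at −1.76 ± 0.36 (SD, n = 2). SNHG17, a snoRNA host transcript, stood at −1.57 ± 0.01 (SD, n = 2), ISG20, an exonuclease, at −1.53 ± 0.03 and GALNT6, a mucin glycosyltransferase, at −1.52 ± 0.07. TNFRSF18 stood at −1.50 ± 0.09 (SD, n = 2), JUN at −1.46 ± 0.38 (SD, n = 4) and YARS1, a tRNA synthetase, at −1.44 ± 0.40 (SD, n = 2). From estradiol, SNHG17 differed by −0.50 ± 0.01 and FOLR1 by 0.46, and the others named here lay between −0.30 (TNFRSF18) and 0.25 (IRF1). Estradiol minus vehicle lay between −2.50 (IRF1) and −1.07 (SNHG17) in all of them, so both treated arrays lay below the vehicle array. Vehicle values ran from 1.04 (SNHG17) to 2.38 (TNFAIP3). Those of estradiol ran from −0.32 (FOLR1) to 0.08 (YARS1), and those of ERα17p from −0.52 (SNHG17) to 0.15 (FOLR1). The vehicle array was thus the farthest from the baseline, and whether either agent moved these genes was not tested.

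**Figure D4:**
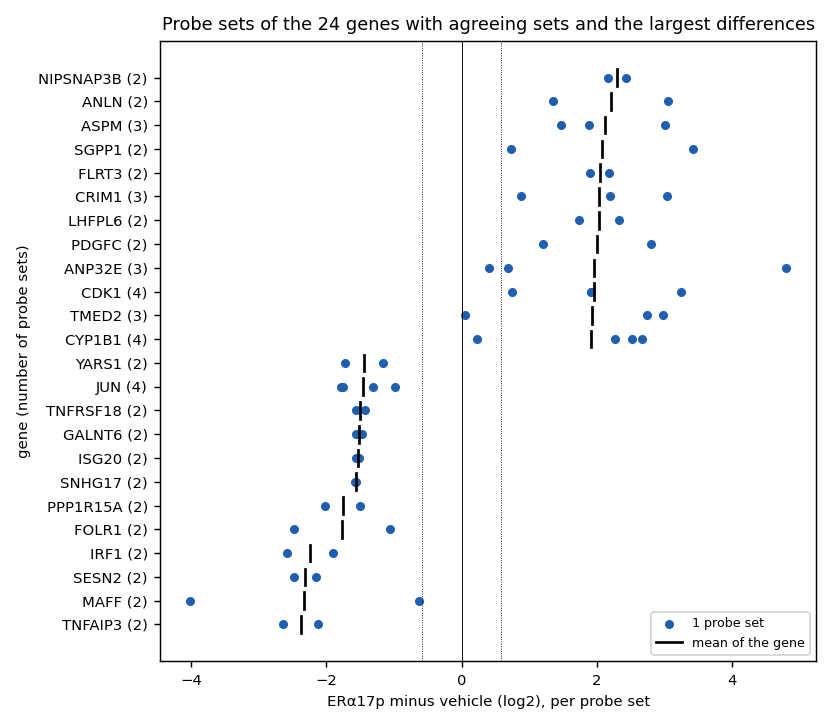
ERα17p minus vehicle (x axis, log2) for each probe set (points) of the 24 genes with agreeing probe sets and the largest differences, 12 higher and 12 lower, with the gene mean as a black bar and dotted lines at 1.5-fold. The sets of ISG20, SNHG17, GALNT6 and FLRT3 lie close together, while those of ANP32E, MAFF, TMED2, SGPP1, CDK1, CYP1B1 and CRIM1 span more than 2 on the log2 scale.

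The genes were then grouped into 94 families by symbol, which overlap in members, and 68 of these had at least 3 agreeing members or at least 2 apart from both arrays. The background for every count is 6.88% of genes higher and 8.76% lower. Against estradiol the family medians ran from −0.32 in the estrogen-induced list and −0.13 in interferon-stimulated genes to 0.12 in the genes of the aryl hydrocarbon receptor. Against vehicle they ran from −0.78 in metallothioneins, or −0.06 for this family without probe sets ending in _x_at or _s_at, to 0.70 in centromere, spindle and cytokinesis genes. The same families were also lowest and highest for estradiol minus vehicle, at −0.68 and 0.61.

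**Figure D5:**
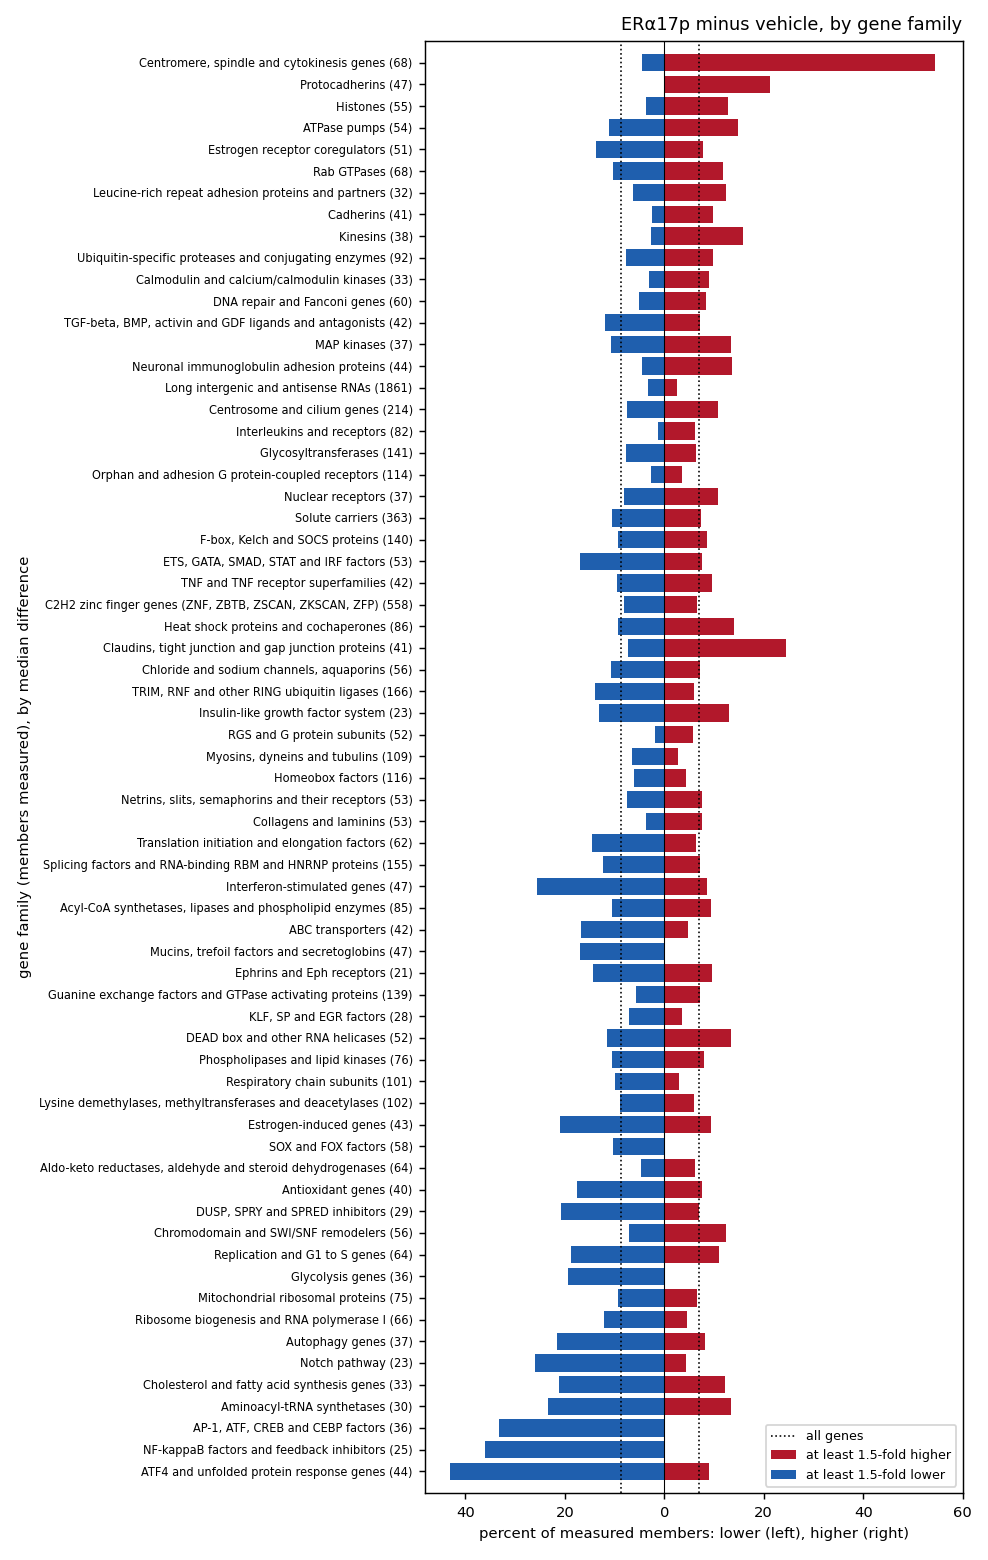
Percent of measured members at least 1.5-fold higher (right, red) and lower (left, blue) in the ERα17p than in the vehicle array, for 66 of these gene families with the number measured in brackets, ordered by median difference. Dotted lines are the shares among all genes, 6.88% higher and 8.76% lower; centromere, spindle and cytokinesis genes reach farthest to the right, and genes of ATF4 and the unfolded protein response farthest to the left.

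In adhesion and guidance families, protocadherins had 10 of 47 members higher and 0 lower, with a median of 0.19. Their median was 0.33 for estradiol minus vehicle and −0.03 against estradiol. PCDHGA4 was higher by 1.33, PCDHB8 by 1.21 and PCDH18 by 1.16 ± 1.11 (SD, n = 2). Protocadherin genes of 1 cluster share sequence, so their signals may not be separate. Claudins and other junction genes had 10 of 41 higher and 3 lower. Their median was −0.004, with 20 members above 0 and 21 below. Among them were CLDN1 at 1.51 ± 0.54 (SD, n = 2), with 0.56 between ERα17p and estradiol, CLDN8 at 1.36 and CLDN3 at −0.75 ± 0.25 (SD, n = 2). Neuronal immunoglobulin adhesion genes had 6 of 44 higher and 2 lower, with the contactin CNTN3 at 2.31 and the neuroligin NLGN4X at 0.88 ± 0.44 (SD, n = 2).

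Leucine-rich repeat adhesion genes had 4 of 32 higher and 2 lower. Besides FLRT3 and LRIG3 of this family, SLITRK6 stood at −0.88 ± 0.44 (SD, n = 3) from vehicle yet 0.91 above estradiol, and FLRT1 at −0.61. Netrins, slits, semaphorins and their receptors had 4 of 53 higher and 4 lower. The slit receptor ROBO2 was higher by 1.32 ± 0.78 (SD, n = 3) and SEMA3C by 1.19 ± 1.17 (SD, n = 2), while the netrin receptor UNC5B stood at −0.88 ± 0.80 (SD, n = 3). Ephrins and Eph receptors had 2 of 21 higher and 3 lower, with EPHB3 at −0.93 ± 0.02 (SD, n = 2) and EFNA1 at −1.35. Cadherins had 4 of 41 higher and 1 lower, with the desmoglein DSG2 at 0.96 ± 0.33 (SD, n = 2), and collagens and laminins had 4 of 53 higher and 2 lower, with LAMB1 at 1.38 ± 0.41 (SD, n = 2) and LAMB2 at −1.40.

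Among secreted signals and receptors, TGF-β and activin ligands and antagonists had 3 of 42 higher and 5 lower, and INHBE, an activin subunit of the stress response, stood at −2.97. The Notch pathway had 1 of 23 higher and 6 lower, with a median of −0.21. Its median was −0.14 for estradiol minus vehicle and −0.02 against estradiol. Besides HEY2, the glycosyltransferase LFNG stood at −1.02 ± 0.64 (SD, n = 2), while the receptor NOTCH2 was higher by 0.97 ± 0.44 (SD, n = 4). Interleukins and receptors had 5 of 82 higher and 1 lower, with the coreceptor IL1RAP at 1.49 ± 1.08 (SD, n = 2). IL1R1, the receptor for interleukin 1, was higher by 0.81 ± 0.29 (SD, n = 2), with 0.58 from estradiol. The TNF and TNF receptor families had 4 of 42 in each direction, with the death receptor FAS at 1.77 ± 0.88 (SD, n = 5) and TNF at −2.47. The insulin-like growth factor system had 3 of 23 in each direction, with IGFBP7 at 1.49 ± 1.33 (SD, n = 3).

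DUSP, SPRY and SPRED genes, grouped by symbol and only some of which damp ERK signalling, had 2 of 29 higher and 6 lower. DUSP4 stood at −0.81 ± 0.20 (SD, n = 3) from vehicle but 0.66 above estradiol, and DUSP5 at −1.20 and 0.57. MAP kinases had 5 of 37 higher and 4 lower, with MAP4K5 at 1.24 ± 0.23 (SD, n = 3). Rab GTPases had 8 of 68 higher and 7 lower. Exchange factors and GTPase activators had 10 of 139 higher and 8 lower, G protein subunits and RGS genes 3 of 52 and 1, with GNAQ at 1.09 ± 0.67 (SD, n = 5), and orphan receptors 4 of 114 and 3. Phospholipases and lipid kinases had 6 of 76 higher and 8 lower, with PLA2G4A at 2.02 and the sphingosine kinase SPHK1 at −1.82. Calmodulin and its kinases had 3 of 33 higher and 1 lower, with CAMK1 at −0.85 ± 0.12 (SD, n = 2) and calcineurin's PPP3CA at 0.65 ± 0.21 (SD, n = 3).

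Among transcription factors, leucine zipper factors of the AP-1, ATF, CREB and CEBP groups had 0 of 36 higher and 12 lower, with a median of −0.26. Their median was −0.32 for estradiol minus vehicle and 0.05 against estradiol. DDIT3, a stress response factor, stood at −3.002, CEBPB at −1.83, JUNB at −1.67 and ATF4 at −1.22, with differences from estradiol between −0.21 (CEBPB) and 0.25 (JUNB). SOX and FOX factors had 0 of 58 higher and 6 lower, with FOXP4 at −0.72 ± 0.02 (SD, n = 2). The ETS, GATA, SMAD, STAT, IRF and TEAD group had 4 of 53 higher and 9 lower, with TEAD1 at 1.15 ± 0.28 (SD, n = 3) and IRF9 at −1.24. Nuclear receptors had 4 of 37 higher and 3 lower, with the clock repressor NR1D2 at 1.34 ± 1.09 (SD, n = 2) and the liver X receptor NR1H3 at −1.17. KLF, SP and EGR factors had 1 of 28 higher and 2 lower, with EGR1 at −0.97 ± 0.32 (SD, n = 3) and KLF8 at 1.02 ± 0.10 (SD, n = 2).

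Homeobox factors had 5 of 116 higher and 7 lower, with MEIS1 at 0.87 ± 0.06 (SD, n = 2) and DLX1 at 0.82 ± 0.51 (SD, n = 2), the latter 0.55 above estradiol. C2H2 zinc finger genes had 37 of 558 higher and 45 lower, close to the background, with ZBTB48 at −1.97 and ZNF610 at 1.76. Mediator subunits and receptor coregulators had 4 of 51 higher and 7 lower, with PELP1, a receptor coactivator, at −0.90. Histone-modifying enzymes had 6 of 102 higher and 9 lower, with PRMT6 at 1.27 and the acetyltransferase KAT5 at −0.98 ± 0.07 (SD, n = 3). Chromatin remodelers had 7 of 56 higher and 4 lower, with ATRX at 1.15 ± 0.39 (SD, n = 4) and CHD3 at −1.08 ± 0.06 (SD, n = 2). Histones had 7 of 55 higher and 2 lower, with H2BC4 at 1.75, or 0.45 above estradiol.

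Centromere, spindle and cytokinesis genes had 37 of 68 higher and 3 lower, 17 of the higher with agreeing sets, and a median of 0.70, with FAM83D at 2.21 and NEK2 at 1.60 ± 1.41 (SD, n = 2). The median of the same family against estradiol was 0.01. Kinesins had 6 of 38 higher and 1 lower, with KIF14 at 1.82 ± 0.95 (SD, n = 2). Replication and G1 to S genes had 7 of 64 higher and 12 lower, with RFC5 at 1.17 ± 0.48 (SD, n = 3), MCM7 at −1.16 ± 0.35 (SD, n = 2) and CDT1, a licensing factor, at −1.22 ± 0.34 (SD, n = 2). DNA repair genes had 5 of 60 higher and 3 lower, myosins, dyneins and tubulins 3 of 109 and 7, and genes with CEP, IFT, CCDC or TTC symbols, many of them of centrosome and cilium, 23 of 214 and 16. IFT25, a cilium transport gene, was higher by 1.23 ± 0.34 (SD, n = 3).

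Genes of ATF4 and the unfolded protein response had 4 of 44 higher and 19 lower, with a median of −0.42. The median of this family was −0.43 for estradiol minus vehicle and −0.06 for ERα17p minus estradiol. CHAC1, which degrades glutathione, stood at −3.87 and SLC3A2, the heavy chain of amino acid exchangers, at −2.03. With estradiol they stood at −3.71 and −1.72 from vehicle. NF-κB factors and feedback inhibitors had 0 of 25 higher and 9 lower, with a median of −0.30 and RELB at −1.43. Their median was −0.34 for estradiol minus vehicle and 0.02 against estradiol. Interferon-stimulated genes had 4 of 47 higher and 12 lower, with HERC5 at −1.55 from vehicle and −0.58 from estradiol, MX1 at −1.15 and IFIT1 at 1.23. Antioxidant genes had 3 of 40 higher and 7 lower, with GPX3 at −1.18 ± 0.11 (SD, n = 2), and autophagy genes 3 of 37 and 8, with ATG16L2 at −0.96 ± 0.26 (SD, n = 2).

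Heat shock proteins and cochaperones had 12 of 86 higher and 8 lower, 10 of the higher with agreeing sets, with HSPA4L at 1.33 ± 0.56 (SD, n = 2) and DNAJA2 at 0.84 ± 0.09 (SD, n = 2). Among ubiquitin genes, RING ligases had 10 of 166 higher and 23 lower, with TRIM28 at −2.02, F-box, Kelch and SOCS proteins 12 of 140 and 13, and ubiquitin proteases and conjugating enzymes 9 of 92 and 7, with USP16 at 0.95 ± 0.25 (SD, n = 3).

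Of RNA and translation families, aminoacyl-tRNA synthetases had 4 of 30 higher and 7 lower with a median of −0.25. MARS2, the mitochondrial methionine enzyme, was higher by 1.18. The synthetase median was −0.30 for estradiol minus vehicle and −0.03 against estradiol. Ribosome biogenesis genes had 3 of 66 higher and 8 lower, with RRP7A at −0.86 ± 0.04 (SD, n = 3) and UTP23 at 1.08 ± 0.23 (SD, n = 4). Mitochondrial ribosomal proteins had 5 of 75 higher and 7 lower, with MRPL4 at −1.05 ± 0.36 (SD, n = 3). Translation factors had 4 of 62 higher and 9 lower. RNA helicases had 7 of 52 higher and 6 lower, with DDX46 at 0.94 ± 0.09 (SD, n = 2), and splicing and RNA-binding genes 11 of 155 and 19, with RBM10 at −1.22 ± 0.13 (SD, n = 3).

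Of metabolic families, glycolysis genes had 0 of 36 higher and 7 lower, with ENO2 at −1.92 and PKM at −1.33 ± 0.37 (SD, n = 2). The median of glycolysis genes was −0.18, with −0.23 for estradiol minus vehicle and 0.01 against estradiol. Cholesterol and fatty acid synthesis genes had 4 of 33 higher and 7 lower, with MVD at −1.31 and ELOVL7 at 1.22. Respiratory chain genes had 3 of 101 higher and 10 lower, with ATP5F1D at −1.02 ± 0.01 (SD, n = 2). Lipid turnover enzymes had 8 of 85 higher and 9 lower, with PNPLA8 at 0.89 ± 0.17 (SD, n = 3). Glycosyltransferases had 9 of 141 higher, all 9 with agreeing sets, and 11 lower, with B3GALNT1 at 1.27 ± 0.64 (SD, n = 3) and B3GAT3 at −1.17 ± 0.21 (SD, n = 2). Aldo-keto reductases and dehydrogenases had 4 of 64 higher and 3 lower, with HSD17B4 at 0.61 ± 0.27 (SD, n = 2).

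Of transport families, solute carriers had 27 of 363 higher and 38 lower, with the citrate carrier SLC25A1 at −1.63, the glutamine carrier SLC1A5 at −1.38 and SLC25A40 at 1.37 ± 0.63 (SD, n = 2). ATPase pumps had 8 of 54 higher, 7 of them with agreeing sets, and 6 lower, with ATP2B1, a calcium pump, at 1.04 ± 0.56 (SD, n = 3). ABC transporters had 2 of 42 higher and 7 lower, with ABCA3 at −1.08. Chloride and sodium channels and aquaporins had 4 of 56 higher and 6 lower, with the epithelial sodium channel subunit SCNN1B at −1.17 and CLCN7 at −0.97 ± 0.13 (SD, n = 3). Mucins, trefoil factors and related secreted products had 0 of 47 higher and 8 lower, with AZGP1 at −2.57, TFF3 at −1.66 and SCGB3A1 at −1.41, the last −0.58 from estradiol.

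The remaining 26 families had between 0 and 5 members higher and between 0 and 7 lower. Metallothioneins, among them, had 0 of 9 higher and 5 lower, with MT1X at −1.38 ± 0.29 (SD, n = 2). The 9 genes are close copies of each other, so their signals may be shared. Secreted Wnt antagonists had 2 of 16 higher, DKK1 and SOSTDC1, the latter at 1.67 and −0.03 from estradiol, and 1 lower. Potassium channels had 1 of 88 higher and 0 lower.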

How the data were processed

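Biotin-labelled RNA was measured on Affymetrix HG-U133 Plus 2 arrays. The values deposited by the authors were taken as log2 expression from RMA, the method that the submitters' processing notes name. No source used here gives its version, the centring step or the log base. Medians near 0 show that each probe set was set against a baseline, which is unstated. The direction of differences follows the labels.

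There were 54675 probe sets, with 62 controls. GEO's annotation named 1 gene for 41091 of the rest, several for 1801 and none for 11721; 41037 of those with 1 gene matched a RefSeq gene record by gene number, and 0 symbols needed an update. Only sets with 1 gene were used. This gave 19775 genes, 9252 with 1 set. Python 3.11.15, numpy 2.4.6, pandas 2.3.3 and matplotlib 3.10.9 were used, and the gene computations were tested on simulated data.

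Depth has no meaning for arrays, and the number of arrays limits the precision. No test was run. Named genes followed a rule. It took 4 genes named at the outset (CYP1A1, NTN4, FLRT3 and DKK1) and the 12 highest and 12 lowest with agreeing sets. Of genes apart from both arrays, it took up to 20 each way with 2 or more sets and 10 each way with 1 set. Each family gave up to 6 by size. ATXN1, CLYBL, NAV2, AHR, AHRR, NFE2L2, SOSTDC1, MT1X, members of the estrogen list and genes at the limits were added after their values were seen. The symbol pattern of the FGF family was also corrected then, to drop FGFR1OP2, which is no FGF receptor. Of the 68 families described by the rule, 2 are not reported here. Members, families and lists were chosen with earlier results of these data known. Alternatives were the median of probe sets, probe sets ending in _x_at or _s_at left out, median-centred differences, 2-fold and 1.3-fold limits, probe sets in place of genes, every set past the limit, and a limit on estradiol minus vehicle.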

Additional observations from a re-analysis of the deposited data

Results flagged for a closer look

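CXCL12 and SHISA2 are listed because the arrays of the treated cells lay on opposite sides of the vehicle array, each at least 1.5-fold away. For CXCL12, the ERα17p array differed from vehicle by −1.33, and the estradiol value of 0.82 lay above the vehicle value of −0.48, each as a mean over 2 probe sets. For SHISA2, on 1 probe set, the ERα17p array differed from vehicle by 0.83, and the estradiol value of −0.73 lay below the vehicle value of 0.19. These differences between the agents rest on 1 array each and were not tested.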

How the results depend on the processing

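No paired analysis was possible because each group had 1 array. No replicate could be left out for the same reason. Counts of genes are given as higher, then lower. All genes at least 1.5-fold from vehicle (1361 and 1732) became 376 and 369 at 2-fold, 2683 and 3226 at 1.3-fold, and 4309 and 4166 when probe sets were counted. Genes with agreeing sets (714 and 592) became 210 and 85 at 2-fold, 1209 and 1176 at 1.3-fold, 234 and 241 when each set had to pass, and 387 and 294 without sets ending in _x_at or _s_at, which left 17098 genes. Genes with agreeing sets apart from both arrays (9 and 8) became 1 and 2 at 2-fold, 64 and 31 at 1.3-fold, 2 and 3 when each set had to pass, and 167 and 168 when only estradiol minus vehicle under 1.5-fold was required. The median of probe sets and median-centring, which moved all genes by 0.0011, kept all 6 counts within 1.5 times. The 33 and 36 genes apart, single-set genes included, became 5 and 4 at 2-fold and 225 and 151 at 1.3-fold. Without sets ending in _x_at or _s_at they became 41 and 43, in which all 27 and 31 still measured remained. Leaving out those sets moved 8 of 94 family medians by over 0.1, among them metallothioneins from −0.78 to −0.06, the aryl hydrocarbon receptor group from 0.26 to 0.42, the Notch pathway from −0.21 to −0.35, AP-1 and related factors from −0.26 to −0.16 and centromere and spindle genes from 0.70 to 0.57. Among named genes, 4 changed sign without those sets: ABCC11 to 0.16, BAG6 to 0.10, GDF15 to 0.38 and XRCC4 to −0.26. The causes were not tested. Signal over background is unknown, as no absolute level was kept.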

Other observations

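Probe sets without a gene name differed from named ones in their balance. Of 11721 unnamed sets, 79 were at least 1.5-fold lower in the ERα17p array than in both others (0.674%) and 6 were higher (0.0512%). Of 41091 sets with 1 gene, 125 were lower (0.304%) and 141 higher (0.343%). Against estradiol alone, which leaves out the vehicle array, 206 unnamed sets were lower (1.76%) and 57 higher (0.486%). The set with the greatest size of the smaller difference had values of 0.61, 0.31 and −1.08 in the vehicle, estradiol and ERα17p arrays.

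Probe sets of 1 gene could also oppose each other. In 274 of 10523 genes with 2 or more sets (2.60%), 1 set was at least 1.5-fold higher and another at least 1.5-fold lower than in vehicle. In RBBP4, a histone-binding protein, 6 sets ran from −1.48 to 1.69, and in AFF4, an elongation factor subunit, 8 sets ran from −1.55 to 1.45. Against estradiol the same sets of RBBP4 ran from −0.50 to 0.23 and those of AFF4 from −0.59 to 0.39. Their gene means, 0.02 and 0.06, hide these differences. Among single-set genes 11.8% were at least 1.5-fold lower and 5.61% higher.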
